A study of Arabidopsis thaliana with 22 samples.

Results

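AT4G03585 and AT1G04247 are long noncoding RNA loci of Arabidopsis thaliana that lie on the opposite strand of CYP86A2 and KCS2, genes of the cuticle and wax pathways. They are 2 of the 5224 noncoding loci listed in the processed files, and both were among the 844 loci with enough reads to be tested. They were picked by locus name, with their earlier values in view: both had more reads in the differentiation zone (DZ) than in the meristematic-elongation zone (MEZ) of untreated roots, and fewer reads in DZ with SCOOP12. Those comparisons are therefore given as descriptions, with no test.

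The roots came from 11-day-old seedlings of the proscoop12 mutant, in the Ws background, and of wild-type Ws. Each genotype was treated with 100 nM SCOOP12 peptide or with water (control), and roots were divided into DZ and MEZ, which gave 8 groups and 22 libraries. There were 3 libraries in each of 6 groups, and 2 each in Ws MEZ SCOOP12 and Ws DZ control. All groups shared the Ws background, the age and short-day growth, and the labels name no further allele or construct. Nothing in the labels says that replicates were grown as separate cultures, and the p-values below therefore cover the spread among these libraries, which may be technical. In pieces of root, fewer cells of a type and less RNA per cell cannot be told apart.

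Cutin and suberin are lipid polyesters that seal plant surfaces. Cutin coats the shoot epidermis, suberin is laid down in the root endodermis and periderm, and waxes fill and cover both. CYP86A2 is a cytochrome P450 that adds a terminal hydroxyl group to fatty acids, the step that makes cutin monomers. KCS2 is a 3-ketoacyl-CoA synthase of the complex that lengthens fatty acids for suberin and wax, and it works alongside its close relative KCS20. SCOOP12 is a small secreted peptide cut from the PROSCOOP12 precursor and perceived by the receptor kinase MIK2. An antisense RNA is read from the other strand of a gene; known ones differ in whether and how they act on that gene.

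The geometry of each pair comes from the RefSeq annotation, whose lengths for both loci equal those in the files. AT4G03585, on chromosome 4, has 1 exon of 782 nt and lies wholly opposite exon 2 of CYP86A2 (AT4G00360). Of its length, 94.4% faces coding sequence, and its 5′ end lies 44 nt past the stop codon of CYP86A2. AT1G04247, on chromosome 1, has 1 exon of 2302 nt and runs across both exons and the whole 1044 nt intron of KCS2 (AT1G04220). It faces exons over 54.6% of its length and intron over 45.4%, and its 3′ end lies 43 nt upstream of the KCS2 start codon. No other annotated gene overlaps either locus, and RefSeq notes both as natural antisense transcripts.

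**Figure D1:**
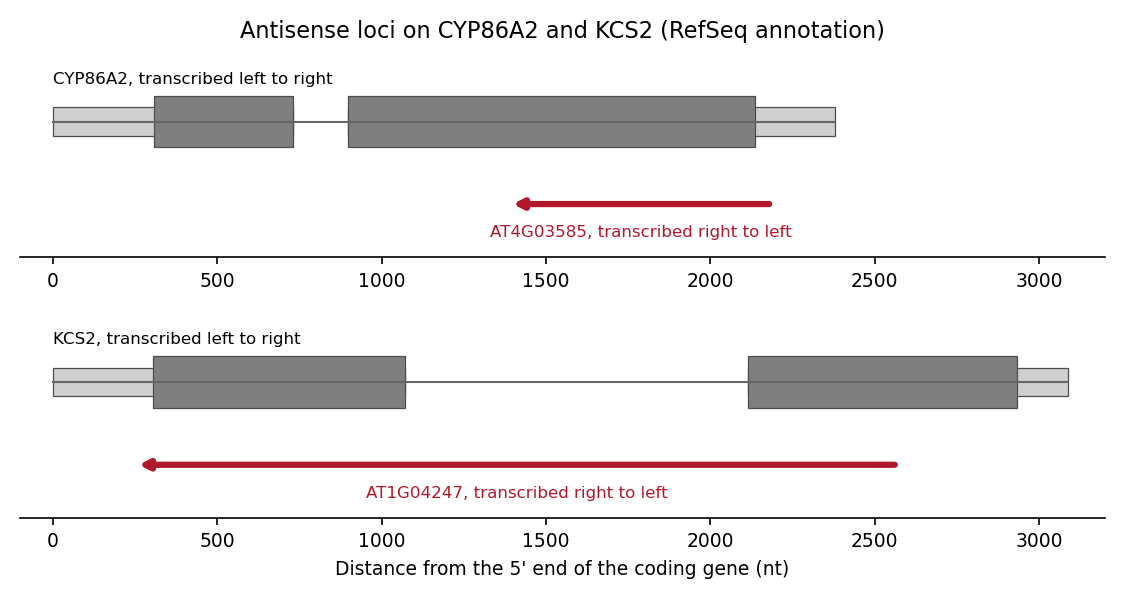
Position of AT4G03585 on CYP86A2 (top) and of AT1G04247 on KCS2 (bottom), in nt from the 5′ end of the coding gene; dark boxes are coding sequence, pale boxes untranslated exon, lines introns and red arrows the antisense loci. AT4G03585 sits within exon 2, and AT1G04247 spans the intron of KCS2.

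The libraries were made with a stranded kit, but the strand that was counted is not given in the sources used here. Reads of CYP86A2 and KCS2 mRNA and reads of the antisense loci therefore cannot be told apart with certainty, and coding genes, CYP86A2 and KCS2 among them, have no values in these files. This holds widely here, since 461 of the 844 tested loci lie opposite a coding exon. Beyond their own partner, the closest coding transcripts were CYP86A4 for AT4G03585, with 80.7% identity over 714 nt, and KCS20 for AT1G04247, with 80.3% identity over 722 nt.

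Libraries held 474434 to 1575524 reads on all listed loci, of which 80.0% to 90.4% fell on ribosomal RNA, leaving 75055 to 160467 reads on other loci. PROSCOOP12 and markers of the zones have no row in the files, so neither the mutant nor the zone labels could be checked on them. Organellar ribosomal RNA differed between zones, with 36.1% to 43.9% of reads in DZ control libraries and 17.2% to 21.9% in MEZ libraries. In DZ SCOOP12, replicate 1 was in the range of DZ control or above it (38.2% in proscoop12, 46.9% in Ws). Replicates 3 and 4 of DZ SCOOP12 were at or near the MEZ range, at 22.5% and 25.2% in proscoop12 and 20.3% and 19.7% in Ws. By this value these 4 libraries resembled MEZ more than DZ control. At 1 further locus, AT2G37362, described below, they had 336 to 406 CPM, against 191 to 259 CPM in MEZ libraries. At AT4G03585 they had 35.8 to 59.1 CPM, within the 13.4 to 77.4 CPM of MEZ libraries. For AT1G04247 they had 63.6 to 80.5 CPM, at or below the 78.1 to 190.7 CPM of MEZ libraries. How many of all loci went either way in these libraries was not counted. Whether these 4 libraries hold DZ tissue was not tested. Every comparison with DZ SCOOP12 below, over all loci too, rests on their zone label, so fitted values of AT4G03585 and AT1G04247 are also given with replicate 1 as the only DZ SCOOP12 library. For 2 libraries the sequencing file name also conflicts with the label. A proscoop12 DZ control name belongs to the file labelled Ws DZ SCOOP12 replicate 3, and the reverse holds for the file labelled proscoop12 DZ control replicate 3. Labels were kept, and fitted values of the zones in proscoop12 control and Ws SCOOP12 and of SCOOP12 in DZ are given with these libraries, without them and with their groups exchanged. Means, ratios and orders of levels follow the labels only.

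With SCOOP12, AT4G03585 was at similar levels in the libraries labelled DZ and MEZ, apart from Ws DZ SCOOP12 replicate 1. Levels are given in CPM, read counts scaled to the total on the tested loci of each library and corrected for composition. In proscoop12 SCOOP12, DZ libraries had 65, 53 and 58 reads (79.8, 52.6 and 59.1 CPM), against 47, 45 and 52 reads (54.6, 52.5 and 60.2 CPM) in MEZ. In Ws SCOOP12, DZ libraries had 123, 48 and 39 reads (152, 46.9 and 35.8 CPM), against 30 and 51 reads (37.7 and 77.4 CPM) in MEZ. The zones overlapped in both genotypes, and the single high library was Ws DZ SCOOP12 replicate 1. The fitted log2 fold change of DZ over MEZ was 0.19 (SE 0.46) in proscoop12 SCOOP12 and 0.44 (SE 0.52) in Ws SCOOP12, and the Ws value was -0.47 without Ws DZ SCOOP12 replicate 1. With replicate 1 as the only DZ SCOOP12 library of each genotype, the values were 0.51 in proscoop12 and 1.41 in Ws. The Ws value was 0.74 without the libraries of conflicting name and 0.93 with their groups exchanged. Across all tested loci, 0.237% in proscoop12 SCOOP12 and 0.118% in Ws SCOOP12 passed as higher in DZ at an adjusted p under 0.05. Without replicate 1 of DZ SCOOP12, 15 of 830 loci passed as higher in DZ in proscoop12 SCOOP12 and 0 in Ws SCOOP12. These contrasts chose the members, so such shares are printed beside the values only for scale.

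In untreated roots, AT4G03585 was several-fold higher in DZ than in MEZ. In proscoop12 control, DZ libraries had 241, 107 and 212 reads (288, 142 and 339 CPM), against 27, 19 and 13 reads (32.9, 23.6 and 13.4 CPM) in MEZ. In Ws control, DZ libraries had 177 and 239 reads (203 and 310 CPM), against 22, 42 and 25 reads (27.6, 49.9 and 39.1 CPM) in MEZ. The lowest DZ control library was well above the highest MEZ control library, and the genotypes interleaved within each zone. The fitted log2 fold change of DZ over MEZ was 3.46 (SE 0.50) in proscoop12 control and 2.72 (SE 0.51) in Ws control. In proscoop12 it was 3.83 without the libraries of conflicting name and 3.26 with their groups exchanged. Across all tested loci, 9.95% in proscoop12 control and 9.12% in Ws control passed as higher in DZ. Libraries that did not overlap, with DZ higher, were seen for 19.1% of loci in proscoop12 and 25.1% in Ws.

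With SCOOP12, AT1G04247 had no order of the zones that all libraries shared. In proscoop12 SCOOP12, DZ libraries had 86, 64 and 79 reads (106, 63.6 and 80.5 CPM), against 78, 83 and 80 reads (90.6, 96.8 and 92.6 CPM) in MEZ. In Ws SCOOP12, DZ libraries had 133, 72 and 81 reads (164, 70.4 and 74.3 CPM), against 76 and 71 reads (95.6 and 108 CPM) in MEZ. In both genotypes replicate 1 was the highest DZ library, and the other DZ libraries were below every MEZ library of their genotype. The fitted log2 fold change of DZ over MEZ was -0.17 (SE 0.33) in proscoop12 SCOOP12 and 0.01 (SE 0.37) in Ws SCOOP12. With replicate 1 as the only DZ SCOOP12 library, the values were 0.17 in proscoop12 and 0.70 in Ws. The Ws value was 0.27 without the libraries of conflicting name and 0.52 with their groups exchanged.

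In untreated roots AT1G04247 was higher in DZ than in MEZ, by a smaller factor than AT4G03585. In proscoop12 control, DZ libraries had 148, 151 and 179 reads (177, 201.04 and 286 CPM), against 64, 68 and 98 reads (78.1, 84.4 and 101 CPM) in MEZ. In Ws control, DZ libraries had 390 reads in all (190.8 and 290.96 CPM), against 79, 101 and 122 reads (99.1, 119.9 and 190.7 CPM) in MEZ. Zones did not overlap within either genotype, with DZ higher, as for 19.1% of tested loci in proscoop12 control and 25.1% in Ws control. In Ws the lower DZ library and the highest MEZ library lay side by side at 190.8 and 190.7 CPM. The fitted log2 fold change of DZ over MEZ was 1.33 (SE 0.33) in proscoop12 control and 0.82 (SE 0.36) in Ws control. In proscoop12 it was 1.47 without the libraries of conflicting name and 1.01 with their groups exchanged.

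**Figure D2:**
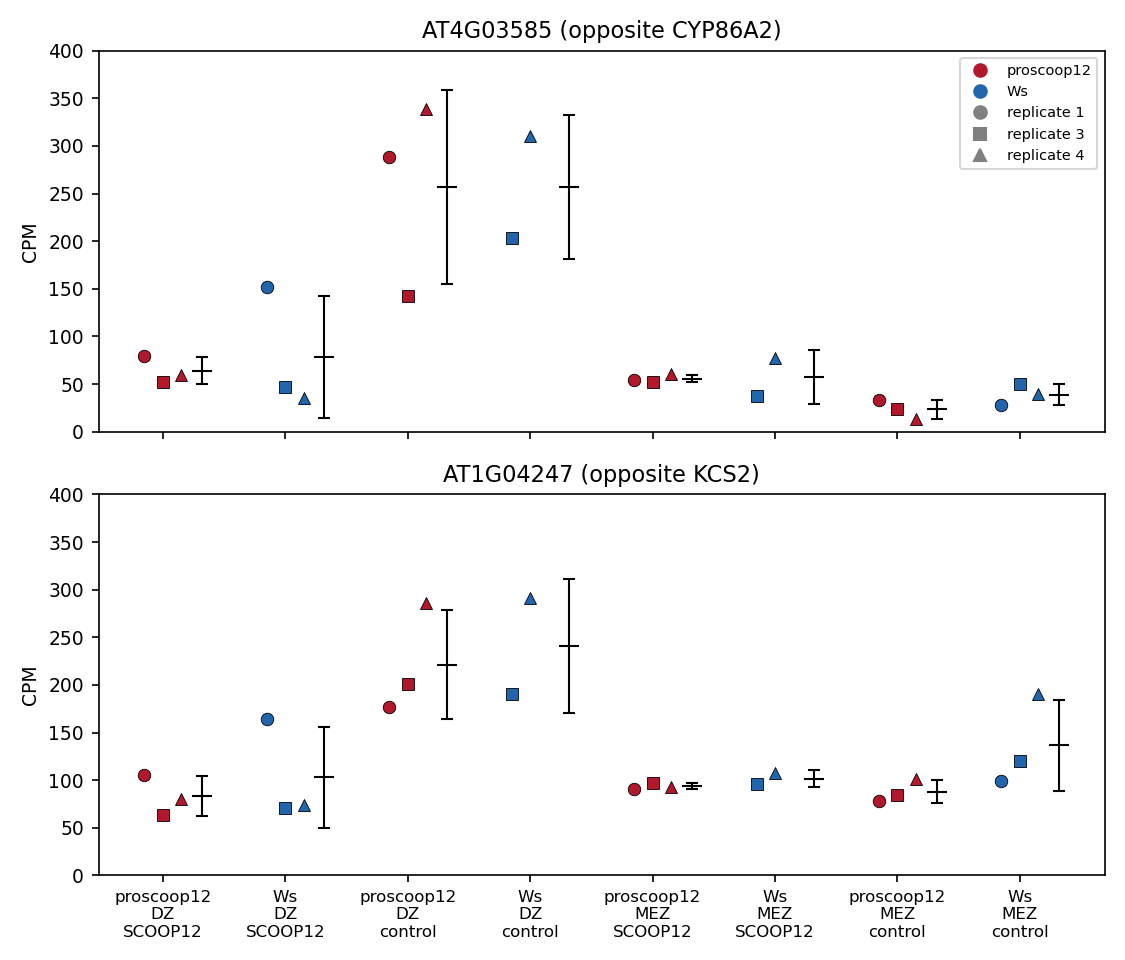
CPM of AT4G03585 (top) and AT1G04247 (bottom) in each library of the 8 groups; colours give the genotype, marker shapes the replicate number, and the bar beside each group the mean ± SD. Both loci were highest in the DZ control groups, and in DZ SCOOP12 replicate 1 was the highest library in both genotypes.

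Libraries of the same replicate number can be set side by side as DZ over MEZ ratios of CPM. For AT4G03585 in SCOOP12 roots the ratios were 1.46, 1.003 and 0.982 in proscoop12 and 1.24 and 0.462 in Ws, with a median of 1.003. In control roots they were 8.75, 6.04 and 25.2 in proscoop12 and 4.08 and 7.94 in Ws, with a median of 7.94. No SCOOP12 ratio of AT4G03585 reached the lowest control ratio. For AT1G04247 in SCOOP12 roots the ratios were 1.16, 0.657 and 0.870 in proscoop12 and 0.736 and 0.689 in Ws, with a median of 0.736. In control roots they were 2.27, 2.38 and 2.82 in proscoop12 and 1.59 and 1.53 in Ws, with a median of 2.27. Here too the ratios of the treatments did not overlap, and 1 of 5 SCOOP12 ratios of AT1G04247 was above 1, against 5 of 5 control ratios. Ws DZ SCOOP12 replicate 1 has no MEZ SCOOP12 library of its number and is in none of these ratios. It had 152 CPM of AT4G03585, against 37.7 and 77.4 CPM in Ws MEZ SCOOP12. For AT1G04247 it had 164 CPM, against 95.6 and 108 CPM. The separation of the ratios therefore does not cover the highest DZ SCOOP12 library. Over all tested loci, 5.45% had every SCOOP12 ratio below every control ratio, and 21.2% had 5 of 5 control ratios above 1. The contrasts that chose the loci are part of these ratios. The proscoop12 control and Ws SCOOP12 ratios of replicate 3 use the libraries of conflicting name.

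**Figure D3:**
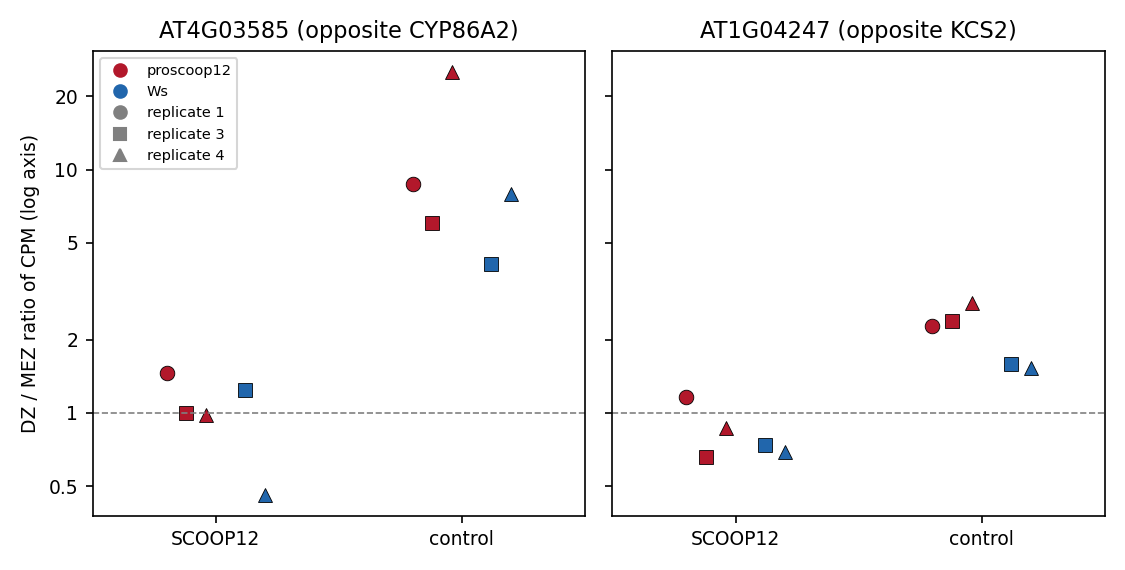
Ratio of CPM in DZ over MEZ for libraries of the same genotype, treatment and replicate number, on a log axis with a dashed line at 1, for AT4G03585 (left) and AT1G04247 (right). SCOOP12 ratios ran from 0.462 to 1.46 for AT4G03585 and from 0.657 to 1.16 for AT1G04247, below all control ratios of the same locus. Ws DZ SCOOP12 replicate 1, the highest DZ SCOOP12 library, has no MEZ SCOOP12 library of its number and is not shown.

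The difference between treatments in the zone preference was fitted as zone by SCOOP12. For AT4G03585 it was -3.27 (SE 0.67) in proscoop12, -2.28 (SE 0.72) in Ws and -2.78 (SE 0.49) averaged over genotypes, on the log2 scale. For AT1G04247 it was -1.50 (SE 0.47) in proscoop12, -0.81 (SE 0.51) in Ws and -1.15 (SE 0.35) averaged over genotypes. Without replicate 1 of DZ SCOOP12 the averages were -3.32 for AT4G03585 and -1.50 for AT1G04247. With replicate 1 as the only DZ SCOOP12 library they were -2.14 and -0.64, and the value in Ws alone was -1.31 for AT4G03585 and -0.12 for AT1G04247. Without the libraries of conflicting name the averages were -2.85 and -1.14, and with their groups exchanged -2.43 and -0.74. The sign was negative in each of these fits, and the size followed which DZ SCOOP12 libraries were kept. The share of organellar ribosomal RNA moved with the same libraries, and its part in the result was not tested.

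The narrowing of zone differences was seen over the tested loci as a whole. Between their quartiles, the 844 loci had log2 fold changes of DZ over MEZ of -0.42 to 0.45 in proscoop12 SCOOP12 and of -0.71 to 0.74 in proscoop12 control. In Ws the same range was -0.44 to 0.45 with SCOOP12 and -0.89 to 0.71 in control. The range was thus narrower with SCOOP12 in both genotypes. With replicate 1 as the only DZ SCOOP12 library it was -0.55 to 0.47 in proscoop12 SCOOP12 and -0.67 to 0.61 in Ws SCOOP12, over 937 loci. Without replicate 1 of DZ SCOOP12 it was -0.60 to 0.48 in proscoop12 SCOOP12 and -0.59 to 0.45 in Ws SCOOP12, over 830 loci. Both settings gave wider ranges than all DZ SCOOP12 libraries together, and control ranges over the same loci are not given. A smaller zone contrast was not confined to AT4G03585 and AT1G04247.

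Seen within DZ, both loci were lower with SCOOP12 than with water in both genotypes. AT4G03585 averaged 63.8 ± 14.2 CPM in proscoop12 DZ SCOOP12, against 257 ± 102 CPM in proscoop12 DZ control (SD, n = 3 each). It averaged 78.3 ± 64.2 CPM in Ws DZ SCOOP12 (SD, n = 3), against 257 ± 75.6 CPM in Ws DZ control (SD, n = 2). The treatments did not overlap in either genotype, and the narrowest gap was between Ws DZ SCOOP12 replicate 1 and Ws DZ control replicate 3, at 152 and 203 CPM. The log2 fold change was -2.01 (SE 0.46) in proscoop12 DZ and -1.73 (SE 0.49) in Ws DZ. In Ws it was -2.64 without Ws DZ SCOOP12 replicate 1 and -0.75 with that library alone, and in proscoop12 -1.70 with replicate 1 of DZ SCOOP12 alone. Without the libraries of conflicting name it was -2.33 in proscoop12 and -1.51 in Ws, and with their groups exchanged -1.81 and -1.23.

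AT1G04247 averaged 83.2 ± 21.1 CPM in proscoop12 DZ SCOOP12, against 221 ± 57.3 CPM in proscoop12 DZ control (SD, n = 3 each). It averaged 103 ± 53.2 CPM in Ws DZ SCOOP12 (SD, n = 3), against 241 ± 70.8 CPM in Ws DZ control (SD, n = 2). Its treatments did not overlap by CPM either, and Ws again had the closest libraries, at 164 and 191 CPM. In TPM these 2 libraries changed order, at 68.8 in Ws DZ SCOOP12 replicate 1 and 65.2 in Ws DZ control replicate 3. The treatments thus overlapped in Ws DZ by TPM. The log2 fold change was -1.41 (SE 0.33) in proscoop12 DZ and -1.23 (SE 0.36) in Ws DZ. In Ws it was -1.74 without Ws DZ SCOOP12 replicate 1 and -0.55 with that library alone, and in proscoop12 -1.08 with replicate 1 of DZ SCOOP12 alone. Without the libraries of conflicting name it was -1.51 in proscoop12 and -1.06 in Ws, and with their groups exchanged -1.09 and -0.72. Over all loci, 1.3% in proscoop12 DZ and 0.355% in Ws DZ passed an adjusted p under 0.05 in either direction, and 6.75% and 8.18% had SCOOP12 libraries wholly below control.

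In MEZ the response to SCOOP12 was not itself used to choose the loci. It is built from the same MEZ libraries as the zone contrasts in view, so its p-values are not independent of the choice. The response in MEZ was tested with edgeR's quasi-likelihood F test, with p-values adjusted over all 844 loci by Benjamini-Hochberg. AT4G03585 averaged 55.8 ± 3.99 CPM in proscoop12 MEZ SCOOP12, against 23.3 ± 9.74 CPM in proscoop12 MEZ control (SD, n = 3 each). All SCOOP12 libraries were above all control libraries there, as they were for 5.69% of tested loci. The log2 fold change was 1.26 (SE 0.49, 95% interval 0.24 to 2.29), with an unadjusted p of 0.0183 and an adjusted p of 0.576 by edgeR, so it did not pass. The adjusted p ranged from 0.101 to 0.992 over the alternatives. These tests held no block for replicate number. With a replicate block 23 loci passed in proscoop12 MEZ against 7 without it, and AT4G03585 did not pass.

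In Ws MEZ, AT4G03585 averaged 57.6 ± 28.1 CPM with SCOOP12 (SD, n = 2), against 38.8 ± 11.1 CPM in control (SD, n = 3), and the libraries overlapped. The log2 fold change was 0.56 (95% interval -0.55 to 1.66; edgeR adjusted p = 0.724), and -0.04 without Ws MEZ SCOOP12 replicate 4. AT1G04247 had a log2 fold change of 0.08 in proscoop12 MEZ (95% interval -0.61 to 0.77; edgeR adjusted p = 0.984). In Ws MEZ it was -0.42 (95% interval -1.20 to 0.35; edgeR adjusted p = 0.692). Neither locus passed, beside 0.829% of loci that did in proscoop12 MEZ and 0.237% in Ws MEZ. The response in MEZ was not found to differ between genotypes: proscoop12 minus Ws was 0.71 for AT4G03585 (95% interval -0.81 to 2.22) and 0.51 for AT1G04247 (95% interval -0.53 to 1.54), each with an edgeR adjusted p of 0.9999. None of the 844 loci (0%) passed that interaction by edgeR or by DESeq2, and 15 had an unadjusted p under 0.05 by edgeR.

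The genotypes could be compared within each zone and treatment, and these comparisons had no part in the choice of the loci. AT4G03585 had a log2 fold change of proscoop12 over Ws of -0.04 in MEZ SCOOP12 (95% interval -1.13 to 1.06) and -0.74 in MEZ control (95% interval -1.79 to 0.30). In DZ it was -0.28 with SCOOP12 (95% interval -1.24 to 0.67) and -0.0028 in control (95% interval -1.02 to 1.02). Libraries of the genotypes overlapped in all 4 comparisons of AT4G03585. The intervals reach about 1 log2 unit or more on at least 1 side, so a difference of that size between genotypes could not be seen at this depth and number of libraries.

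AT1G04247 averaged 87.96 ± 12.1 CPM in proscoop12 MEZ control, against 137 ± 48.0 CPM in Ws MEZ control (SD, n = 3 each). That log2 fold change was -0.63 (95% interval -1.32 to 0.06), with an unadjusted p of 0.0713 and an adjusted p of 1 by edgeR, so it did not pass. In the other comparisons of proscoop12 with Ws, AT1G04247 had log2 fold changes of -0.12 in MEZ SCOOP12 (95% interval -0.89 to 0.65), -0.30 in DZ SCOOP12 (95% interval -0.99 to 0.38) and -0.12 in DZ control (95% interval -0.87 to 0.63). With replicate 1 as the only DZ SCOOP12 library, the DZ SCOOP12 values were -0.95 for AT4G03585 and -0.66 for AT1G04247. Every edgeR adjusted p of both loci between genotypes was at least 0.982. Over all loci, 0.118% passed in MEZ control and in MEZ SCOOP12, and 0% in DZ SCOOP12 and in DZ control. In DZ SCOOP12, 8 loci had an unadjusted p under 0.05 by edgeR and DESeq2 passed 1, and in DZ control the counts were 32 and 0. Across these 4 comparisons, the 2 responses in MEZ and their interaction, the loci gave 14 tests. None passed by edgeR or by DESeq2, and 1 had an unadjusted p under 0.05 by edgeR.

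**Figure D4:**
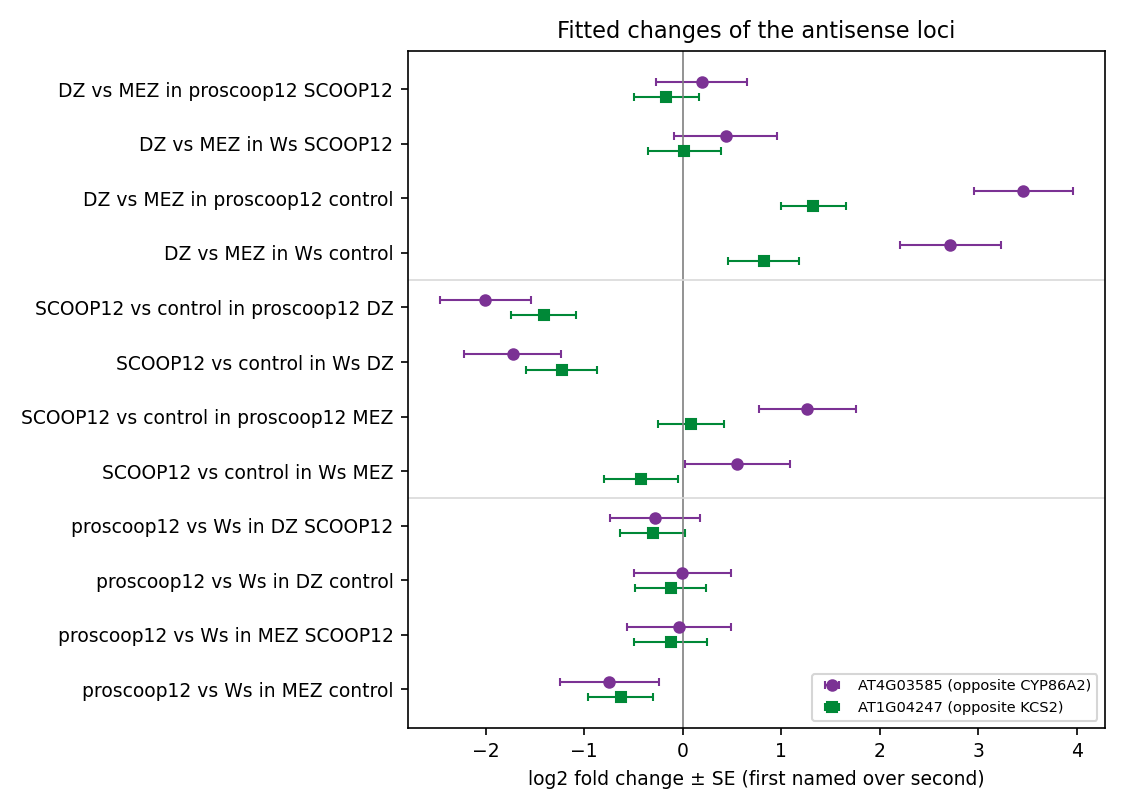
Fitted log2 fold changes ± SE of AT4G03585 and AT1G04247 in 12 comparisons, the group named first over the group named second. DZ over MEZ in control (3.46 and 2.72 for AT4G03585) and SCOOP12 over control in DZ (-2.01 and -1.73) lie farthest from 0, while the comparisons of proscoop12 with Ws lie between -0.74 and 0.

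The zone preference was compared between genotypes as a description. In SCOOP12 roots the difference, proscoop12 minus Ws, was -0.24 (SE 0.70) for AT4G03585 and -0.18 (SE 0.50) for AT1G04247. In control roots it was 0.74 (SE 0.70) and 0.51 (SE 0.49). All 4 values were within about 1 SE of 0. With replicate 1 as the only DZ SCOOP12 library, the SCOOP12 values were -0.90 and -0.53.

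Ordered by mean CPM, the groups of AT4G03585 ran from DZ control through DZ SCOOP12 and MEZ SCOOP12 to MEZ control. Ws DZ control and proscoop12 DZ control did not differ beyond their spread, and the next step down, to Ws DZ SCOOP12, was 178 CPM against a pooled SD of 85.2 CPM. From there Ws DZ SCOOP12, proscoop12 DZ SCOOP12, Ws MEZ SCOOP12 and proscoop12 MEZ SCOOP12 followed within the spread of each neighbour. Ws MEZ control and proscoop12 MEZ control were lowest, each more than 1 pooled SD below the group before it. For AT1G04247 the DZ control groups were again highest, and the step of 84.8 CPM from proscoop12 DZ control to Ws MEZ control exceeded the pooled SD of 52.9 CPM. The other 6 groups lay between 83.2 and 137 CPM, and of their 5 neighbouring pairs only Ws MEZ SCOOP12 and proscoop12 MEZ SCOOP12 differed by more than 1 pooled SD, at 102 and 93.3 CPM.

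The loci were also set against each other within each library, which removes the scaling between libraries. The ratio of AT4G03585 to AT1G04247 in TPM, a unit that corrects for transcript length, compares levels per length. In proscoop12 it averaged 2.84 ± 0.195 in DZ SCOOP12, 4.29 ± 1.71 in DZ control, 2.19 ± 0.185 in MEZ SCOOP12 and 1.02 ± 0.538 in MEZ control (SD, n = 3 each). In Ws it averaged 2.54 ± 0.846 in DZ SCOOP12 (SD, n = 3), 3.92 ± 0.0221 in DZ control (SD, n = 2), 2.03 ± 0.827 in MEZ SCOOP12 (SD, n = 2) and 1.09 ± 0.401 in MEZ control (SD, n = 3). Per length the loci were thus about equal on average in MEZ control. AT4G03585 was the more abundant in every DZ library, where the ratio was 1.74 or higher, and in every MEZ SCOOP12 library (1.44 or higher). The means of the SCOOP12 groups of both zones lay between those of the control groups, but single libraries overlapped. In proscoop12 DZ, SCOOP12 libraries had 2.67 to 3.06, against 2.59 in control replicate 3. In Ws MEZ, SCOOP12 replicate 3 had 1.44, against 1.53 in control replicate 3.

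**Figure D5:**
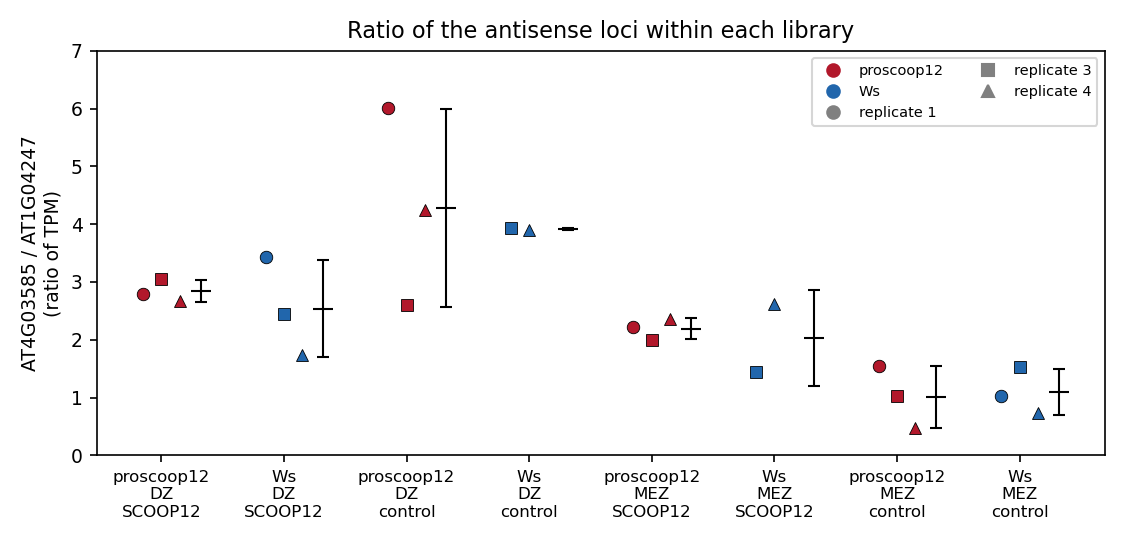
TPM of AT4G03585 divided by TPM of AT1G04247 in each library of the 8 groups, with the mean ± SD beside each group; colours give the genotype and marker shapes the replicate number. Group means were 2.03 to 2.84 with SCOOP12, 4.29 and 3.92 in DZ control, and 1.02 and 1.09 in MEZ control.

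The loci with the most similar pattern were taken from 635 tested loci with a mean of at least 10 CPM, by Pearson's r of log2 CPM over the 8 group means. For AT4G03585 they were AT1G08803 (r = 0.98), AT2G31585, AT2G14878 and AT5G24735 (r = 0.97 each) and AT5G09525 (r = 0.96). AT1G08803 lies wholly opposite AT1G65970, which RefSeq names as a thioredoxin-dependent peroxidase. Over the 22 single libraries the values were lower, 0.84 for AT1G08803, 0.67 for AT2G31585, 0.65 for AT2G14878, 0.50 for AT5G24735 and 0.83 for AT5G09525. For AT1G04247 the closest were AT1G31935 (r = 0.97), AT1G08173 (r = 0.96), AT1G04487 (r = 0.95), AT3G00880 (r = 0.92) and AT1G07367 (r = 0.90). AT1G04247 and AT4G03585 had r = 0.84 with each other over groups and 0.77 over libraries, which placed AT1G04247 at rank 53 among the loci nearest AT4G03585, and AT4G03585 at rank 11 among those nearest AT1G04247. All of these points share libraries and depth.

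Other antisense loci of the same pathways were looked up from a list of 91 genes of cutin, suberin and wax synthesis, export and control. None of the 91 genes has a row of its own, and 8 have an annotated locus on the opposite strand among the files' loci. Besides AT4G03585 and AT1G04247, AT2G37362 and AT3G01142 passed the filter on low counts. The remaining 4 were AT1G05337 opposite the exporter gene ABCG11 with 7 reads over all libraries, AT3G06845 opposite FAR4, a fatty acyl reductase gene, with 2 reads, AT4G07275 opposite the wax gene CER2 with 1 read, and AT5G01855 opposite the regulator gene SHN2 with 0 reads. AT4G03585 had 1735 reads over all libraries and AT1G04247 had 2303.

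AT2G37362 lies opposite ABCG2, a transporter gene needed for suberin, and was higher in DZ than in MEZ of untreated roots of both genotypes. With SCOOP12 it averaged 392 ± 12.8 CPM in proscoop12 DZ, against 231 ± 27.2 CPM in proscoop12 MEZ (SD, n = 3 each). It averaged 405 ± 105 CPM in proscoop12 DZ control, against 218 ± 31.4 CPM in proscoop12 MEZ control (SD, n = 3 each). By CPM, its DZ libraries were above its MEZ libraries in both treatments, as they were for 9.12% of tested loci in proscoop12 SCOOP12, 11.7% in Ws SCOOP12, 19.1% in proscoop12 control and 25.1% in Ws control. In TPM the zones overlapped in proscoop12 control, with 82.9 in DZ replicate 3 and 95.8 in MEZ replicate 1. The log2 fold change of DZ over MEZ passed in proscoop12 control (0.90, edgeR adjusted p = 0.00591) and in Ws control (0.76, edgeR adjusted p = 0.0320). In Ws the adjusted p was between 0.0613 and 0.165 with any 1 of the 5 libraries left out. With SCOOP12 it was 0.76 in proscoop12 (edgeR adjusted p = 0.0811, and 0.0120 with a replicate block) and 0.70 in Ws (edgeR adjusted p = 0.278). Its zone by SCOOP12 value averaged over genotypes was -0.10 (edgeR adjusted p = 0.901).

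AT3G01142 lies opposite MYB106, a gene for a regulator of cuticle formation. Its log2 fold changes of DZ over MEZ were 0.42 in proscoop12 SCOOP12 (edgeR adjusted p = 0.352), 0.09 in Ws SCOOP12 (0.934), 0.52 in proscoop12 control (0.0899, and 0.0286 with a replicate block) and 0.56 in Ws control (0.106). Of these 2 further loci of the list, 1 passed as higher in DZ in each genotype in control and none with SCOOP12 by the main edgeR model, without a replicate block. With that block, AT2G37362 passed in proscoop12 SCOOP12 and AT3G01142 in proscoop12 control. Over all tested loci, 9.95% in proscoop12 control and 9.12% in Ws control passed as higher in DZ, and 0.237% and 0.118% with SCOOP12. At an unadjusted p under 0.05 by edgeR both were higher in DZ in control, and AT2G37362 was with SCOOP12. The share of all loci at that threshold was not counted. With SCOOP12, DESeq2 passed AT2G37362 in proscoop12 (adjusted p = 0.0283). No test of a difference between these 2 further loci and AT4G03585 or AT1G04247 was made.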

How the data were processed

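Total RNA was made into stranded mRNA libraries and read as 100 nt pairs, per the labels' protocols. Quantification by the authors used Salmon, per the submitters' processing notes, which also name DESeq2. Deposited values are estimated counts and TPM per transcript, per the file headers; for version, build, annotation and strand setting the sources used here give nothing. Estimated counts were rounded (1.28% to 2.01% of values per library were fractional), and TPM served for ratios between the loci. Of the 5224 loci, 5182 matched RefSeq by name, used for names and relative positions only.

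One model in edgeR 4.0.16 (under R 4.3.3) held all 22 libraries and 8 group means, with TMM, filterByExpr (minimum count 10, minimum total 15), quasi-likelihood F test, Benjamini-Hochberg over 844 loci, threshold 0.05. SE was taken as |log2 fold change| / √F. Code was tested on simulated data. DESeq2 1.42.0 was an alternative, and identities came from blastn 2.17.0.

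The members, lists and tests were chosen with earlier results of these data known. Named loci are the members, the 5 loci most like each, and every locus opposite a listed gene.

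After removal of group means, libraries of the same number correlated at 0.109 to 0.677 over loci in the 6 comparisons with 3 such pairs, at most 0.0887 for other pairs, so the numbers were taken to pair them. In the comparisons with 2 such pairs, same-number values were 0.151 to 0.382. Other pairs there reached 0.237, in DZ against MEZ of Ws control, above the lowest same-number value of that comparison (0.151). The main model held no block for this pairing, and a replicate block was run as an alternative. File names put replicates 1 and 3 in one sequencing run and replicate 4 in another. Every per-sample column was used or mapped.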

Additional observations from a re-analysis of the deposited data

Results flagged for a closer look

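AT4G03585 was lower with SCOOP12 in DZ and higher in MEZ in all libraries of proscoop12 roots. In DZ every SCOOP12 library was below every control library, as for 6.75% of tested loci, with a fitted log2 fold change of -2.01. That order follows the labels. With the conflicting groups exchanged, 1 proscoop12 DZ control library would have 46.9 CPM, below all proscoop12 DZ SCOOP12 libraries. In MEZ every SCOOP12 library was above every control library, as for 5.69% of tested loci. The log2 fold change there was 1.26, which did not pass over all loci (edgeR adjusted p = 0.576). The share of loci with both orders was not counted. In Ws the log2 fold changes were -1.73 in DZ and 0.56 in MEZ, where SCOOP12 and control libraries overlapped and the value was -0.043 without Ws MEZ SCOOP12 replicate 4, so the opposite order of all libraries was seen in proscoop12 alone. The difference was not tested, since AT4G03585 was chosen with the DZ response in view.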

How the results depend on the processing

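Of 726 values of AT4G03585 and AT1G04247 under alternatives, 686 kept their sign and 40 changed it, 20 in tested comparisons and 20 in descriptions. Of the sign changes in descriptions, 13 were within the spread between replicates, among them DZ over MEZ in Ws SCOOP12, which reached -0.47 for AT4G03585 and -0.49 for AT1G04247 without Ws DZ SCOOP12 replicate 1. Descriptions moved beyond the spread in 26 cases, 7 of them with a change of sign. None of the 14 tests passed under any alternative. The setting with only replicate 1 of DZ SCOOP12, and the alternatives for AT2G37362 and AT3G01142, were chosen after seeing the data. The cause of the changes was not tested.

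Sign changes in the tested comparisons were these, for proscoop12 over Ws unless named. For AT4G03585 in MEZ SCOOP12 the value was 0.053 without a filter, 0.52 with replicates 1 and 3 only and 0.0019 without the libraries of conflicting name, and -0.47 to 0.56 with 1 library left out. For AT4G03585 in DZ control it was 0.086 with replicates 1 and 3, 0.27 without the libraries of conflicting name, 0.00041 without replicate 1 of DZ SCOOP12, 0.015 in a fit of those groups alone and -0.28 to 0.33 with 1 library left out. For AT1G04247 in DZ control it was 0.0047 with replicates 1 and 3, and -0.40 to 0.21 with 1 left out. In DZ SCOOP12 without replicate 1 it was 0.45 for AT4G03585 (-0.62 to 0.63 with 1 left out) and 0.0049 for AT1G04247 (-0.51 to 0.21). SCOOP12 over control in Ws MEZ was -0.025 for AT4G03585 with replicates 1 and 3, and -0.043 to 0.99 with 1 left out.

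Among descriptions, with only replicate 1 of DZ SCOOP12, DZ over MEZ with SCOOP12 was 0.51 for AT4G03585 and 0.17 for AT1G04247 in proscoop12 and 0.70 for AT1G04247 in Ws; SCOOP12 over control in Ws DZ was -0.75 and -0.55; zone by SCOOP12 was -1.31 and -0.12 in Ws, -1.16 for AT1G04247 in proscoop12, and -2.14 and -0.64 averaged. Without replicate 1 of DZ SCOOP12, zone by SCOOP12 of AT4G03585 in Ws was -3.18, and its genotype differences were 0.45 for SCOOP12 in DZ and 0.48 for the zones with SCOOP12. With replicates 1 and 3 only, zone by SCOOP12 of AT4G03585 was -1.06 in Ws, -2.72 in proscoop12 and -1.89 averaged, and its genotype difference for the zones with SCOOP12 was -1.11. With the conflicting groups exchanged, AT1G04247 had 1.01 for DZ over MEZ in proscoop12 control, -1.17 and -0.74 for zone by SCOOP12 in proscoop12 and averaged, and -0.69 for genotype by zone with SCOOP12. With 1 library left out, zone by SCOOP12 of AT4G03585 in Ws was -3.19 to -1.69, genotype by SCOOP12 in DZ was -0.63 to 0.64 for AT4G03585 and -0.52 to 0.34 for AT1G04247, and genotype by zone with SCOOP12 was -0.85 to 0.67 and -0.39 to 0.33.

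The replicate block changed no call of AT4G03585 or AT1G04247: SCOOP12 over control in proscoop12 MEZ was 1.30 for AT4G03585 (edgeR adjusted p = 0.138). Blocked counts of passing loci were 10 against 2 for SCOOP12 in Ws MEZ, 23 against 7 in proscoop12 MEZ and 1 against 0 for proscoop12 over Ws in DZ SCOOP12. Over all alternatives these counts ran from 0 to 11, 1 to 23 and 0 to 2, and for proscoop12 over Ws from 0 to 1 in MEZ control, 0 to 4 in MEZ SCOOP12 and 0 to 4 in DZ control. AT2G37362 no longer passed as higher in DZ control without a filter (adjusted p = 0.0864 in proscoop12 and 0.261 in Ws). AT3G01142 in Ws SCOOP12 was -0.21 with only replicate 1 of DZ SCOOP12 and -0.022 to 0.22 with 1 library left out. Depth limits the loci to 13 to 241 reads per library.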
